A study of Mus musculus with 18 samples.

Results

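Gene deserts are long stretches of chromosome without protein-coding genes. Gene desert H3K4me3 regions were taken here as stretches under H3K4me3 peaks that lay in no protein-coding gene and more than 500 kb from both ends of every one. Overlapping peaks of the 9 H3K4me3 peak lists were merged on chromosomes 1 to 19, which gave 179043 regions, and 13604 of them were gene desert regions. Of the others, 90528 were intergenic within 500 kb of a coding gene (near intergenic), 55166 lay in gene bodies and 19745 lay within 1 kb of an end of a coding gene (promoter regions). The mark was mapped by CUT&RUN, where an antibody-bound nuclease cuts out the chromatin carrying it, in prospermatogonia of mouse embryos at E17.5 (embryonic day). The cells were positive for the Oct4-GFP reporter, which marks germ cells, had been stored frozen, and gave 4000 nuclei per library. There were 3 libraries each of Tet1-/- (KO), Tet1HxD/HxD (HxD) and Tet1+/+ (WT) cells, labelled as biological replicates of 1 batch, and all 3 genotypes carried the reporter. KO cells lack TET1, and HxD cells carry an allele with a changed HxD motif in the catalytic domain that is known as catalytically inactive. The 9 IgG samples of the series were not used here.

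H3K4me3 is laid down mainly at active and poised promoters and on unmethylated DNA rich in the dinucleotide CG, and DNA methylation and H3K4me3 tend to exclude each other. Prospermatogonia stop dividing in the fetal testis and regain most of their DNA methylation before birth. TET1 is an enzyme that oxidises methylated cytosine, binds DNA through a CXXC domain and also has partners that do not depend on its catalysis. The series title asks how that other activity of TET1 shapes the chromatin of male germ cells. Gene deserts often lie beside genes for cell adhesion and for development, and little in them is transcribed apart from noncoding RNA genes.

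In deserts lay 231 promoter windows of noncoding genes in the RefSeq table (300 bases each, 250 before to 50 after the start), belonging to 206 genes, and 57 of them had a peak in at least 1 library. The sequences of 6 are shown as examples of desert sites where a known transcription start can lie under the mark. Those of Gm46645 and Gm40175 had a peak in all 9 libraries. That of 1700019L22Rik lies in 1 of the 10 broadest desert regions found in all 9 and itself had a peak in 5 libraries, and those of Gm46244, Gm41243 and Gm30340 had a peak in every WT library and in no KO or HxD library. All but 1700019L22Rik were chosen after their values were seen. All 6 are long noncoding RNA genes. Each sequence is RefSeq's on build GRCm38.p6, read 5′ to 3′ along the strand of the gene, with every CG in capitals.
Gm46645: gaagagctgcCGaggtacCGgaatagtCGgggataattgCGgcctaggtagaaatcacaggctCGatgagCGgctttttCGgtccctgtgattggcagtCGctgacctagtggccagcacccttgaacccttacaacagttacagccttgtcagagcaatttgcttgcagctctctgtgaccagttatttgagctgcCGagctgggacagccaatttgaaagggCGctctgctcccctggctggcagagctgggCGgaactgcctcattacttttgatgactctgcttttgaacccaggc
Gm40175: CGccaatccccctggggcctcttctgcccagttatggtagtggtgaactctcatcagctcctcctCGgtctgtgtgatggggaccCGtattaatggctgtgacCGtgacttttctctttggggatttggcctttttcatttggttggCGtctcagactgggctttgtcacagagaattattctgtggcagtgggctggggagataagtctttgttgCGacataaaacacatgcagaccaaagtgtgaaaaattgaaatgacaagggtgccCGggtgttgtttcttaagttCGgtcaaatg
1700019L22Rik: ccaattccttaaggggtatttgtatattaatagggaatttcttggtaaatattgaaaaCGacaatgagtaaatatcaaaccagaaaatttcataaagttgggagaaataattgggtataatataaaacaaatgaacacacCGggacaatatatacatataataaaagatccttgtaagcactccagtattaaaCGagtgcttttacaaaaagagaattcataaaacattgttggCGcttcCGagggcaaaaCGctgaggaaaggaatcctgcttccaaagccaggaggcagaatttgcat
Gm46244: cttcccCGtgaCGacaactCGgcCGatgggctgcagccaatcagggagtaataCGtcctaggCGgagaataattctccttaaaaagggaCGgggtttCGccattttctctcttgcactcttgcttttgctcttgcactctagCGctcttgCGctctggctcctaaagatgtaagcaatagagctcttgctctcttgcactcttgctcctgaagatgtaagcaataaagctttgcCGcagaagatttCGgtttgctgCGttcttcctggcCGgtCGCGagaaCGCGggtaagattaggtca
Gm41243: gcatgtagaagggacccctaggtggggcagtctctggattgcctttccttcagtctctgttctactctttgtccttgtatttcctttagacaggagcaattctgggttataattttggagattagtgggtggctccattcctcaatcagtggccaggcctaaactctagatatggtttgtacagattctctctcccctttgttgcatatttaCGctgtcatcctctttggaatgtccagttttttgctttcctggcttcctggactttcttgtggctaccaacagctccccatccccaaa
Gm30340: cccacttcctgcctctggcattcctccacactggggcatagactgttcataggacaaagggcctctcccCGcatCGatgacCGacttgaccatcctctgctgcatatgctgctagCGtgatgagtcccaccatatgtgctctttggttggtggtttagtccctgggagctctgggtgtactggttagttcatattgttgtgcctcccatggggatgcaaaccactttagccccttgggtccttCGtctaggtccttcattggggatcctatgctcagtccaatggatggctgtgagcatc
The windows lie at chr19:15340298-15340597 on the minus strand (Gm46645), chr3:147968098-147968397 on the plus strand (Gm40175), chr8:50917384-50917683 on the minus strand (1700019L22Rik), chr1:113145271-113145570 on the plus strand (Gm46244), chr14:112721631-112721930 on the minus strand (Gm41243) and chr3:17336483-17336782 on the minus strand (Gm30340). The motif searched was CG, which reads the same on both strands. It occurred 11 times at Gm46645, 8 times at Gm40175, 6 times at 1700019L22Rik, 18 times at Gm46244, 1 time at Gm41243 and 5 times at Gm30340. Of the 231 desert windows 81.8% held at least 1 CG, against 94.8% of all 31396 promoter windows. The median number of CG was 2 in desert windows, 7 over all windows and 14 in coding promoters. Desert windows with a peak in at least 7 libraries, with one in 1 to 6 libraries and with none had medians of 4, 4 and 2. The windows with a peak in all 9 libraries thus held 11 and 8 CG, and those with one in WT alone 18, 1 and 5, so the second set held both the richest and the poorest of the 6.

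The lists held 67973 to 78045 autosomal peaks in KO, 48468 to 66289 in HxD and 81072 to 123424 in WT. Background, the pileup expected at a position, was recovered from the authors' fold and p values as 1.26 ± 0.273 in KO, 0.933 ± 0.308 in HxD and 1.31 ± 0.386 in WT libraries (mean ± SD, n = 3 each). HxD replicate 2 had the shortest list and the lowest background of the 9, and WT replicate 3 had the longest list and the highest background. Divided by the scale solved from each list, the background was 1.40 ± 0.132 in KO, 1.65 ± 0.0541 in HxD and 1.53 ± 0.187 in WT. It was then 1.67 in HxD replicate 2 and 1.75 in WT replicate 3. The 5th percentile of peak summits, in multiples of background, was 10.2 in HxD replicate 2 and 5.14 in WT replicate 3. By genotype it was 6.22 ± 0.985 in KO, 9.31 ± 1.41 in HxD and 7.09 ± 1.74 in WT. Germ cell markers had a peak at a gene end in all 9 libraries for 6 of 10 genes (Dazl, Ddx4, Pou5f1, Dnd1, Tdrd1 and Dppa3), and Piwil2 had none. A peak in all 9 was also seen for 5 of 6 Sertoli markers measured, 2 of 7 Leydig or interstitial markers (Insl3 and Pdgfra) and 4 of 7 endothelial or blood markers (Kdr, Cdh5, Tek and Tal1). Cyp17a1, Hsd3b1 and Star of Leydig cells and Ptprc of blood cells had no peak in any library. Summed bp under peaks of the germ cell list were 10781 to 15989 in KO, 7007 to 12399 in HxD and 8504 to 10983 in WT. Those of the Sertoli list were 8656 to 11510 in KO, 8411 to 10957 in HxD and 10441 to 11199 in WT, those of the Leydig or interstitial list 2218 to 5056 in KO, 2391 to 5417 in HxD and 4942 to 7510 in WT, and those of the endothelial or blood list 3122 to 5692 in KO, 4409 to 5873 in HxD and 4817 to 6260 in WT. The germ cell sums thus reached higher in KO than in WT, and in HxD both higher and lower than in WT. The Leydig or interstitial sums reached lower in KO and in HxD than in WT. All of these ranges overlapped with those of WT. The part of other cells, and of background, in the desert results was not tested.

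Both mutants had far fewer H3K4me3 regions in gene deserts than WT. KO replicates 1 to 3 overlapped 2665, 3279 and 2011 of the 13604 desert regions. HxD replicates 1 to 3 overlapped 2636, 1147 and 2780, and WT replicates 1 to 3 overlapped 6769, 6030 and 9132. Every mutant library lay below every WT library, and the KO and HxD libraries overlapped each other. The KO mean was 0.363 times and the HxD mean 0.299 times the WT mean. Bp under desert peaks were 1.33 ± 0.446 Mb in KO, 1.26 ± 0.606 Mb in HxD and 5.03 ± 0.959 Mb in WT cells (SD, n = 3 each), which gave ratios to WT of 0.265 and 0.250. The regions were also shorter, with 498 ± 69.7 bp covered per region in KO, 559 ± 65.3 bp in HxD and 691 ± 21.4 bp in WT. Lower means than in WT were not particular to deserts. Near intergenic regions had 675 ± 113, 734 ± 72.0 and 821 ± 33.4 bp in KO, HxD and WT. Gene body regions had 717 ± 129, 835 ± 61.0 and 855 ± 82.2 bp. Promoter regions went the other way, with 1775 ± 257, 1699 ± 166 and 1685 ± 87.2 bp. With 3 libraries against 3 the smallest two-sided exact permutation p is 0.1, which both mutants reached against WT for number and for bp. The 6 mutant libraries together against the 3 WT libraries gave an exact permutation p = 0.0119, the smallest this test can give, and 0.0476 after Benjamini-Hochberg adjustment over the 20 differences tested for 5 library measures. Over the 3 genotypes the exact permutation F test gave p = 0.0214 for number and 0.0321 for bp, both 0.0357 adjusted over the 5 measures. KO against HxD gave an exact p = 0.6 for number and 0.9 for bp, which does not show that they are alike. The comparisons of KO and of HxD with WT share the same 3 WT libraries.

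**Figure D1:**
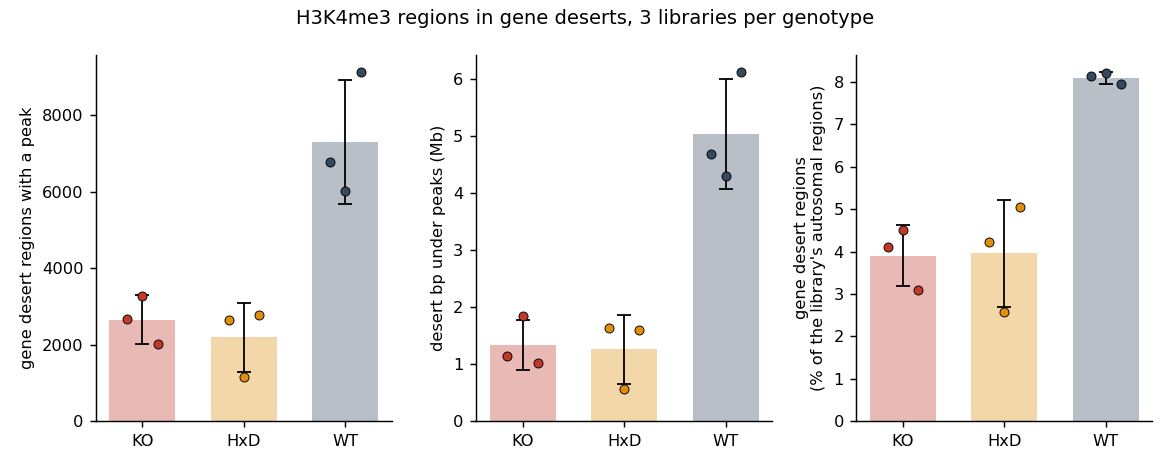
Gene desert regions with a peak (left), Mb under desert peaks (middle) and desert regions as a percent of the library's autosomal regions (right) in KO, HxD and WT. Points are the 3 libraries, bars their mean and error bars 1 SD; all 6 mutant libraries lie below all 3 WT libraries in each panel.

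The share of a library's regions that lay in deserts differed in the same direction. Desert regions made up 4.11%, 4.51% and 3.10% of all autosomal regions in KO replicates 1 to 3, 4.23%, 2.57% and 5.06% in HxD replicates 1 to 3, and 8.14%, 8.21% and 7.94% in WT replicates 1 to 3. The WT libraries lay within a narrow range and above all mutant libraries, although their total numbers of peaks differed widely. With every list cut to its 48468 strongest peaks, the length of the shortest, the number of desert regions was 0.451 times WT in KO and 0.534 times WT in HxD. With only peaks whose summit reached 10.2 times the background of the library, a setting chosen after the data were seen, the ratios were 0.261 and 0.329. Under both settings the mutant and WT libraries did not overlap.

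Deserts differed between genotypes by another factor than the rest of the genome. Promoter regions numbered 15248 ± 573 in KO, 14751 ± 506 in HxD and 16072 ± 972 in WT libraries (SD, n = 3 each), 0.949 and 0.918 times the WT mean. Near intergenic regions stood at 0.677 times WT in KO and 0.538 in HxD, and gene body regions at 0.871 and 0.579. On the log2 scale the ratio of desert to promoter regions was lower than in WT by 1.39 in KO and by 1.70 in HxD, which are differences of -1.39 and -1.70. The ratio of desert to near intergenic regions was -3.42, -3.40 and -3.86 in KO replicates 1 to 3, -3.48, -4.03 and -3.19 in HxD replicates 1 to 3, and -2.63, -2.59 and -2.68 in WT replicates 1 to 3. No mutant library reached a WT library in either ratio. The differences of the second ratio from WT were -0.93 for KO and -0.93 for HxD, each with the smallest possible exact p of 0.1. For both ratios the 6 mutant libraries against WT gave an exact permutation p = 0.0119 (0.0476 adjusted over the 20 differences). The exact F test over 3 genotypes gave 0.0214 for the first ratio and 0.0357 for the second, each 0.0357 adjusted over 5 measures, and for the second ratio it missed 0.05 when any 1 WT replicate was left out (0.0571 to 0.0679). Per Mb of the 216 Mb that make up desert space, there were 12.3 ± 2.93 regions in KO, 10.1 ± 4.18 in HxD and 33.8 ± 7.49 in WT. Per Mb of near intergenic space there were 25.7 ± 2.82, 20.5 ± 4.50 and 38.0 ± 9.63. Within every single library, those of WT included, the desert density lay below the near intergenic one, so that order was not particular to the mutants. Across libraries, the ranges of the 2 densities overlapped in WT and were separate in both mutants.

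The ratio to WT was lower the farther a region lay from coding genes. At 1 to 10 kb from the nearest coding gene KO libraries had 0.783 times and HxD libraries 0.588 times the WT mean number of regions. At 50 to 100 kb the ratios were 0.675 and 0.550, and at 250 to 500 kb they were 0.504 and 0.401. Inside deserts they were 0.388 and 0.315 at 500 to 1000 kb and 0.318 and 0.271 beyond 1000 kb. The decline therefore ran on within the deserts and had no step at 500 kb. Just inside that limit, at 500 to 550 kb, 1430 regions had ratios of 0.433 in KO and 0.344 in HxD, and just outside, at 450 to 500 kb, 1594 regions had 0.452 and 0.369. No test was made of single distance bins.

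**Figure D2:**
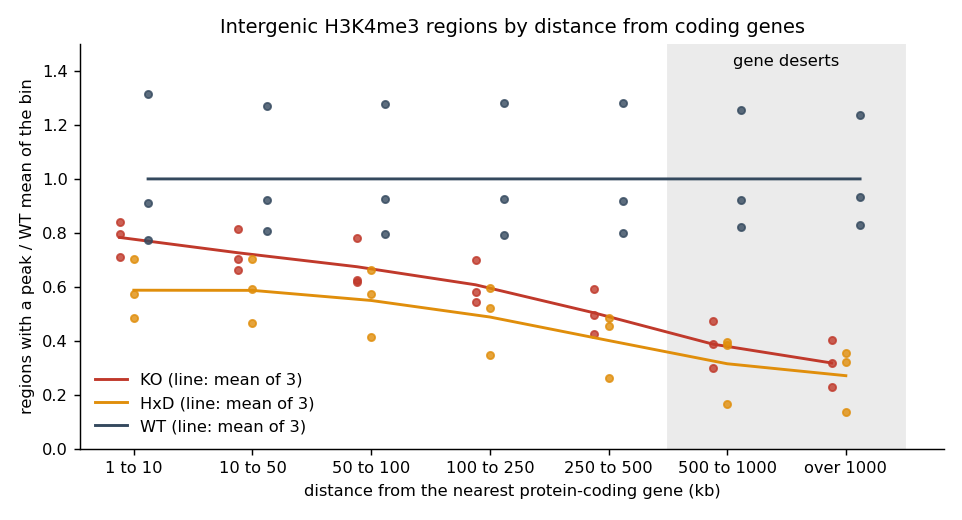
Number of intergenic regions with a peak in each library, divided by the WT mean of the same distance bin, against distance from the nearest protein-coding gene in kb. Points are libraries and lines the means of 3; KO and HxD go down with distance to 0.318 and 0.271 beyond 1000 kb, and WT is 1 by construction.

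A large part of the desert regions common to WT was missing from the mutants. Of 4108 desert regions found in every WT library, 1500 (36.5%) were in no KO library, where 10.8% of all autosomal regions found in every WT library were in no KO library. That share was 12.9% of near intergenic, 8.54% of gene body and 1.25% of promoter regions. Against HxD, 1309 of the 4108 desert regions (31.9%) were in no HxD library, beside 10.4% of all regions. Of 527 desert regions found in every KO library 4 (0.759%) were in no WT library, beside 0.594% of all regions. Of 652 found in every HxD library 2 (0.307%) were in no WT library, beside 0.181% of all regions. Between the mutants, 23 of 527 (4.36%, beside 1.47% of all regions) were in every KO and no HxD library, and 23 of 652 (3.53%, beside 0.816%) in every HxD and no KO library. Without KO replicate 2, the KO library with most desert regions, the count missing from KO was 2375, and without WT replicate 2 the count missing from HxD was 2091. With lists of equal length the counts were 422 for KO and 239 for HxD. The share over all regions was not taken under these settings.

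Desert peaks were lower than promoter peaks. Median summit heights of desert peaks, in multiples of the background of the library, were 9.78 ± 1.54 in KO, 13.2 ± 1.70 in HxD and 12.7 ± 1.10 in WT libraries (SD, n = 3 each), and those of promoter peaks were 31.7 ± 6.99, 29.2 ± 4.53 and 19.3 ± 0.653. The regions found in every WT library were binned by the lowest of their 3 WT summits. Where that summit was 15 to 20 times background, 16.8% of 926 desert regions were absent from all KO libraries, and so were 3.32% of 7950 near intergenic and 0.148% of 6076 promoter regions. In HxD the shares at that height were 9.07%, 2.25% and 0.132%. At 20 times or more, 3.97% of 428 desert regions were absent from all KO libraries and 1.40% from all HxD libraries, against 0.782% and 0.414% of 4349 near intergenic regions. In each of the 4 height bins the share absent was highest in the desert class, for KO and for HxD. Heights were not matched within a bin, and the differences between classes were not tested. Single libraries differed: at 20 times or more, 59.6%, 90.2% and 57.2% of these desert regions were present in KO replicates 1 to 3, and 89.7%, 54.2% and 90.4% in HxD replicates 1 to 3. KO replicates 1 and 3 and HxD replicate 2 were the low ones.

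**Figure D3:**
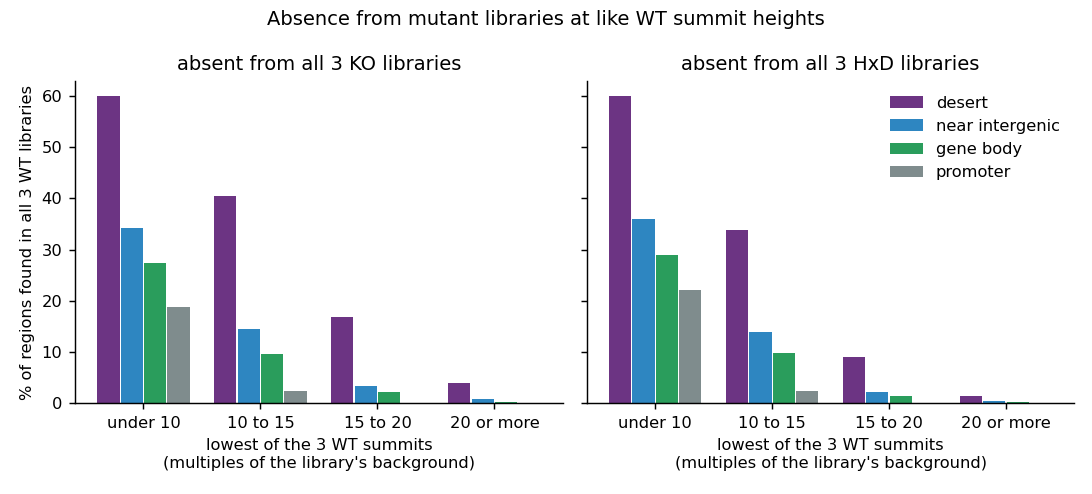
Percent of regions found in all 3 WT libraries that had no peak in any KO library (left) or any HxD library (right), by region class and by the lowest of the 3 WT summits in multiples of background. Desert bars are the highest of the 4 classes in every bin, for example 16.8% in KO at 15 to 20 against 3.32% for near intergenic regions.

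Most desert regions were seen in few libraries: 6439 of 13604 (47.3%) in 1 library only and 234 (1.72%) in all 9, where 63.6% of promoter regions were in all 9. In KO replicate 1, 44.2% of its desert regions were in no other library, and in the other libraries that share was 3.26% to 30.0%. The 234 regions common to all 9 averaged 706, 1075 and 869 bp in KO replicates 1 to 3. They averaged 1107, 692 and 1009 bp in HxD replicates 1 to 3 and 1422, 1409 and 1605 bp in WT replicates 1 to 3. No mutant library reached a WT library. The mean of the genotype lay below the WT mean in 220 of the 234 for KO (94.0%) and in 222 for HxD (94.9%), with median differences of -554 and -502 bp. Over all 25421 autosomal regions found in all 9 libraries it lay below in 60.6% for KO and 70.5% for HxD, with medians of -111 and -193 bp. By class, promoter regions had 43.3% for KO and 56.3% for HxD, and near intergenic regions 81.3% and 87.0%.

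The broadest region common to all 9, at chr5:79810024-79815954, lies 2402 kb from Igfbp7, a secreted protein that binds insulin-like growth factors, and 1203 kb from Adgrl3, an adhesion receptor of neurons. Its covered bp were 1241, 3829 and 3271 in KO, 4025, 1239 and 3060 in HxD and 4728, 5415 and 5153 in WT. All mutant libraries lay below WT, with limma differences of -2318 ± 691 bp for KO (SE, adjusted p = 0.0426) and -2324 ± 691 bp for HxD (adjusted p = 0.0484). Of 17 other settings, 8 lost the KO call and 12 the HxD call. The third broadest, at chr9:12609854-12614281 between Cntn5, a contactin of neuronal membranes, and Jrkl, had 2526, 2040 and 1781 bp in KO, 2240, 1796 and 1860 bp in HxD and 3212, 3402 and 3704 bp in WT. It too was narrower in every mutant library (adjusted p = 0.0211 for KO and 0.0198 for HxD), but with lists of equal length the KO difference turned to 213 bp broader, and 8 of 17 settings lost each call. The same desert held 2 more of the 10 broadest.

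Other broad regions did not go that way. At chr8:73351489-73355614, between F2rl3, a thrombin receptor, and Isx, a homeobox factor of the intestine, covered bp were 3208, 3326 and 4085 in KO, 3287, 3024 and 3283 in HxD and 2302, 3067 and 3291 in WT. The genotypes overlapped, and the differences of 653 ± 380 bp for KO and 311 ± 380 bp for HxD had adjusted p of 0.264 and 0.604. At chr6:16315747-16318772, between Mdfic, an inhibitor of transcription factors, and Tfec, a factor of the MiT family, the values were 2527, 2550 and 2835 bp in KO, 2795, 2206 and 1757 bp in HxD and 2234, 2327 and 2451 bp in WT. Here every KO library stood above every WT library, with an adjusted p of 0.551. The region that holds the promoter of 1700019L22Rik, at chr8:50914686-50917946 between the teneurin gene Tenm3 and Aga, a lysosomal enzyme, had 1026, 2202 and 2363 bp in KO, 2740, 2201 and 1826 bp in HxD and 2161, 2535 and 3261 bp in WT. These values overlapped as well.

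A region near the middle of the desert between the protocadherin genes Pcdh20 and Pcdh9, at chr14:90696406-90698505, was 1 of the regions that all WT and no mutant libraries held. It was at 0 bp in all 6 mutant libraries and had 1724, 1159 and 1839 bp in WT. No test is given for such regions, since the choice fixes the difference. The same held for chr8:100952195-100953700 between the classical cadherin genes Cdh8 and Cdh11, with none in the mutants and 1354, 1463 and 1344 bp in WT. The region at chr19:49564299-49566255 between Sorcs3 and Sorcs1, sorting receptors of neurons, had none in the mutants and 1773, 928 and 1645 bp in WT.

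Other regions kept a narrow peak in the mutants. At chr4:38555872-38560222, between Lingo2, a leucine-rich repeat protein of neurons, and 1700009N14Rik, covered bp were 716, 890 and 836 in KO, 1446, 1206 and 1800 in HxD and 3611, 3966 and 3111 in WT. The KO, HxD and WT values formed separate ranges, and the differences from WT were -2749 ± 300 bp for KO (adjusted p = 0.0133) and -2079 ± 300 bp for HxD (adjusted p = 0.0180). At chr2:108420495-108423352, between the potassium channel gene Kcna4 and Mettl15, they were 651, 1035 and 647 in KO, 862, 267 and 540 in HxD and 2598, 2604 and 2851 in WT (adjusted p = 0.0159 and 0.0177). Both mutants lay well below WT there and overlapped each other.

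**Figure D4:**
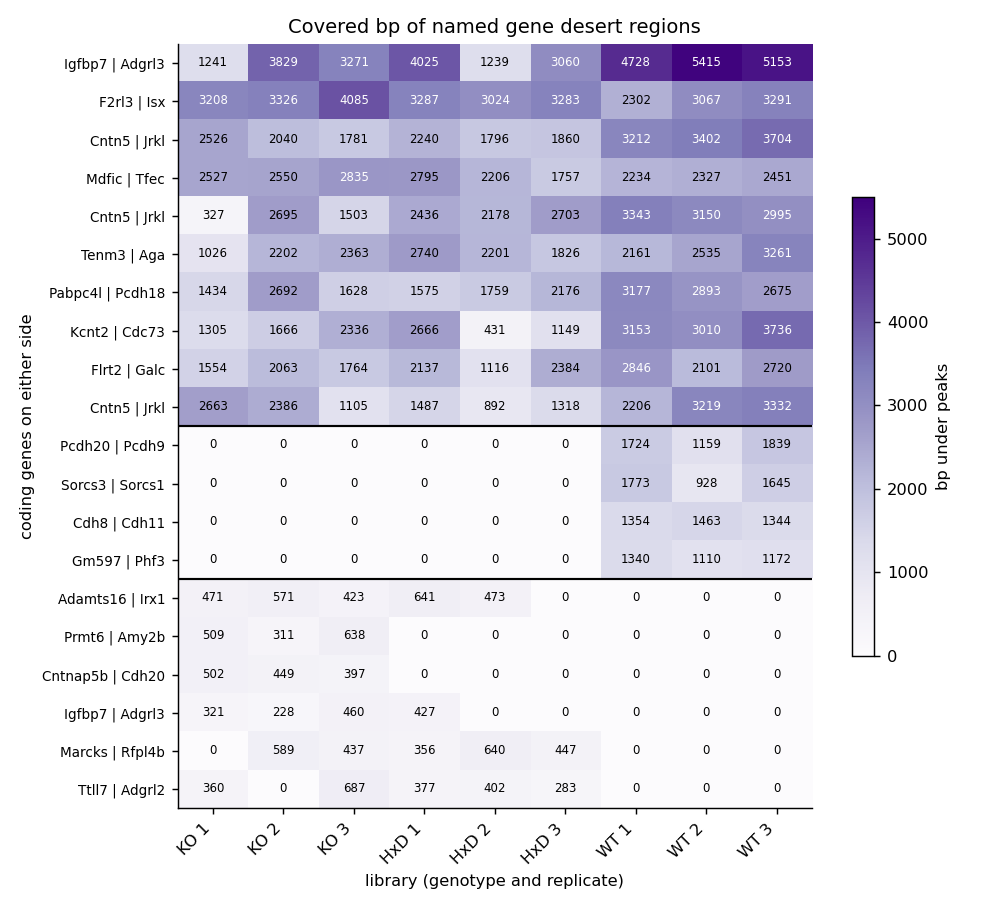
Bp under peaks in each library (columns, KO, HxD, WT) for the 10 broadest gene desert regions found in all 9 libraries (top block), 4 named regions with a peak in every WT and no mutant library (middle block) and 6 with a peak in every KO or every HxD library and no WT library (bottom block). Rows are named by the coding genes on either side; values in the bottom block stay at or under 687 bp, while those of WT in the middle block reach 1839 bp.

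Over all 13604 desert regions with no filter, limma called 1115 (8.20%) narrower in KO than in WT and 0 broader, beside 3.23% narrower and 0.14% broader of all 179043 regions. In HxD it called 787 (5.79%) narrower and 0 broader, beside 2.36% and 0.0268%. At an unadjusted p under 0.05 there were 14 broader desert regions in KO and 1 in HxD, beside 1854 and 610 of all 179043 regions. Of the desert regions 5301 were in at least 3 libraries and entered the fit from which the adjusted p-values of named regions come. In that fit 2009 of the 5301 were narrower and 3 broader in KO, beside 11.9% and 0.426% of all 78668 regions fitted. In HxD 1612 of the 5301 were narrower and 0 broader, beside 9.47% and 0.0661% of all regions fitted. Nothing is read from these counts, since a region could enter through WT alone. With no filter the median difference from WT over the 13604 desert regions was -164 bp in KO and -168 bp in HxD, beside -93 and -102 bp over all 179043 regions. The calls depended on single libraries: without KO replicate 1 or without KO replicate 3 there were 0 calls for KO (smallest adjusted p 0.0564 and 0.0742; 2770 and 2724 narrower at an unadjusted p under 0.05), and without HxD replicate 2 or 3 there were 0 for HxD (0.0795 and 0.0625; 2339 and 2926). Leaving out WT replicate 1, 2 or 3 gave 612, 913 or 329 narrower for KO and 278, 597 or 59 for HxD. Over all regions fitted these were 2905 of 71856, 5022 of 73055 and 1251 of 70345 for KO, and 1476, 3572 and 235 for HxD. At an unadjusted p under 0.05 without the mutant libraries named, they were 15283 of 77483 and 17634 of 76801 for KO. For HxD they were 13651 of 78015 and 17532 of 77221. In the fits that kept all WT libraries a region could still enter through WT alone. With each library centred on its mean over all regions fitted, 175 desert regions were narrower and 9 broader in KO, beside 0.983% and 1.33% of all 78668 regions. In HxD 26 were narrower and 0 broader, beside 0.161% and 0.102% of all regions. At an unadjusted p under 0.05 the centred fit had 62 desert regions broader in HxD, beside 5305 of all 78668.

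Few desert regions went the other way. The 3 regions called broader in KO in the fit of regions in at least 3 libraries were chr1:102092692-102093362, chr3:111724669-111725412 and chr3:16994131-16995502. The first lies between Cntnap5b, a neurexin family member, and the cadherin gene Cdh20, and had 502, 449 and 397 bp in KO and none in the HxD and WT libraries. The second lies between Prmt6, an arginine methyltransferase, and the amylase gene Amy2b, with 509, 311 and 638 bp in KO and none elsewhere. Both entered the fit through KO alone, so their p-values are not given. At the third, between Ythdf3, a reader of methylated RNA, and Cypt12, there were 964, 581 and 1148 bp in KO, 0, 524 and 260 bp in HxD and 0, 353 and 0 bp in WT (adjusted p = 0.0413 for KO, a call lost in 11 of 17 settings, and 0.699 for HxD). A region at chr13:71381148-71381969, 576 kb from the homeobox gene Irx1, had 471, 571 and 423 bp in KO, 641, 473 and 0 bp in HxD and none in WT. With a peak in all HxD and no WT libraries stood chr10:37970372-37971088 between Marcks, a substrate of protein kinase C, and Rfpl4b, with 0, 589 and 437 bp in KO and 356, 640 and 447 bp in HxD, and chr3:147963835-147964644 between the tubulin-modifying enzyme Ttll7 and the adhesion receptor gene Adgrl2, with 360, 0 and 687 bp in KO and 377, 402 and 283 bp in HxD. Both thus had a peak in 2 KO libraries as well. All of these were narrow, with at most 1148 bp in any library.

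Between KO and HxD limma called 0 desert regions in the fit of regions in at least 3 libraries. At an unadjusted p under 0.05 that fit had 38 desert regions lower and 38 higher in KO, beside 652 lower and 1527 higher of all 78668. The median difference over all 13604 desert regions with no filter was 0 bp. Over all regions 0 of 78668 (0%) were called in either direction. With no filter 0 desert regions were called, beside 0.00112% higher and 0% lower in KO of all 179043 regions. The smallest p in the KO direction belonged to chr8:73497451-73498926, between F2rl3 and Isx. Covered bp there were 993, 1333 and 1024 in KO, none in HxD and 1103, 678 and 1122 in WT (limma adjusted p = 0.709 for KO against WT). In the HxD direction the smallest p belonged to chr2:137686753-137688191, between the Notch ligand gene Jag1 and Btbd3. Covered bp there were 0, 231 and 241 in KO, 961, 780 and 1188 in HxD and 1120, 1024 and 1386 in WT (limma adjusted p = 0.606 for HxD against WT). No p-value against WT is given for HxD at the first site or for KO at the second, since the choice favoured those low values. The KO values overlapped WT at the first site and the HxD values at the second, but the difference between the mutants did not pass the test (adjusted p of 1 for both).

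The difference from WT was spread over nearly all deserts with at least 20 regions. The regions fell into 245 stretches between neighbouring coding genes, and 150 of them held at least 20 regions. Every KO library had fewer regions than every WT library in 131 of the 150 (87.3%), beside 33.8% of 2393 windows of 1 Mb with at least 20 regions anywhere on the autosomes. Every HxD library had fewer than every WT library in 142 (94.7%), beside 66.3% of the windows. The windows are unlike units. The 150 deserts had a median gap of 1.97 Mb between coding genes and a median of 63.5 regions. The windows counted regions of every class, desert regions among them, and were not matched to the deserts in size or number of regions. In none of the 150 deserts did every library of a mutant stand above every WT library. The ratio to WT had a median of 0.372 (0.206 to 1.04) for KO and 0.303 (0.0909 to 0.667) for HxD over the 150. By chromosome, desert regions were fewer in every KO and in every HxD library on 19 of 19, beside 52.6% of chromosomes for KO and 100% for HxD over regions of any kind. The chromosome ratios ran from 0.304 to 0.573 in KO and from 0.227 to 0.426 in HxD.

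The desert with most regions was the 4.54 Mb between Pcdh20 and Pcdh9 on chromosome 14, which held 355. KO replicates 1 to 3 had 40, 85 and 38 of them, HxD replicates 1 to 3 had 65, 28 and 78, and WT replicates 1 to 3 had 190, 163 and 255. The mutants overlapped each other and stayed far below WT, at 0.268 and 0.281 times its mean. In all 9 libraries regions with a peak were spread along the stretch. Between Olfm4, a secreted glycoprotein, and Pcdh17 on the same chromosome, the counts were 53, 65 and 35 in KO, 53, 19 and 55 in HxD and 158, 151 and 208 in WT. The deserts of Slc39a10 to Tmeff2, Cntnap5b to Cdh20 and Pcdh7 to G6pd2 came next, with ratios of 0.288, 0.294 and 0.271 for KO and 0.284, 0.235 and 0.283 for HxD. The second longest desert, 4.51 Mb between Celf4, an RNA-binding protein, and Pik3c3, a lipid kinase, on chromosome 18, differed less, with 43, 36 and 25 regions in KO, 31, 14 and 24 in HxD and 49, 49 and 88 in WT. At the low end stood Pdcd1 to Fam174a for KO (0.206) and Gm42163 to Cenpc1 for HxD (0.0909), and at the high end Slc4a3 to Epha4 for KO (1.04), whose libraries overlapped WT with 12, 7 and 7 in KO against 6, 5 and 14 in WT. The region farthest from any coding gene, at chr14:90740355-90741316 and 2269 kb from Pcdh20, had 0 bp in the 3 KO libraries, 0, 0 and 264 bp in HxD and 454, 467 and 670 bp in WT. In Ttll7 to Adgrl2, which holds the promoter of Gm40175, the counts were 14, 18 and 10 in KO, 16, 9 and 15 in HxD and 18, 15 and 27 in WT.

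**Figure D5:**
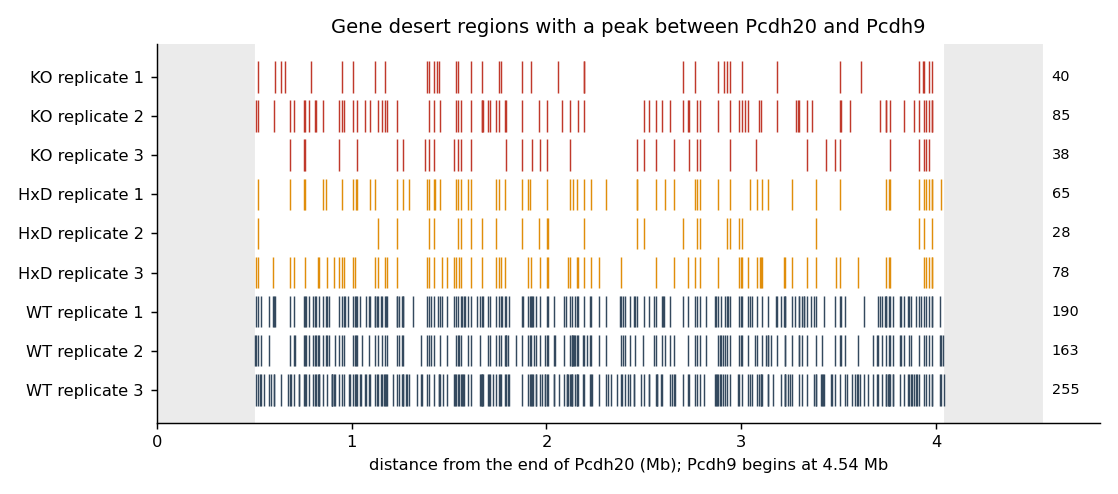
Gene desert regions with a peak in each library along the stretch between Pcdh20 and Pcdh9, in Mb from the end of Pcdh20; each tick is 1 region, the number at the right is their count, and grey marks the 500 kb beside each gene that are not desert. KO libraries have 40, 85 and 38 ticks, HxD libraries 65, 28 and 78, and WT libraries 190, 163 and 255, spread along the stretch.

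The genes beside deserts were often adhesion or synapse genes. Of 450 coding genes that flank a desert region, 49 (10.9%) were on a list of adhesion and synapse gene families such as cadherins, protocadherins, contactins and latrophilins, which held 238 of all 20661 coding genes (1.15%). Of developmental transcription factors there were 13 (2.89%), against 1.00% of coding genes, and of chemosensory receptors 1 (0.222%), against 7.06%. The 6048 regions beside an adhesion or synapse gene numbered 1090, 1409 and 807 in KO, 1116, 468 and 1216 in HxD and 3130, 2802 and 4168 in WT, ratios of 0.327 and 0.277. The other 7556 had ratios of 0.393 and 0.318. Both sets thus lay well below WT, and the difference between the sets was not tested.

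Desert regions mostly lay where no gene of any kind is annotated: 12178 of 13604 (89.5%) overlapped none, 849 (6.24%) overlapped a long noncoding RNA gene and 329 (2.42%) a pseudogene. Regions in no gene stood at 0.352 times WT in KO and 0.291 in HxD. Those in a noncoding gene stood at 0.450 and 0.369. Of the 231 noncoding promoter windows in deserts, 17, 28 and 23 had a peak in KO replicates 1 to 3, 25, 12 and 26 in HxD replicates 1 to 3 and 43, 42 and 49 in WT replicates 1 to 3. No mutant library reached WT. Of 11081 noncoding promoter windows elsewhere, 2979 ± 458 had one in KO, 2882 ± 287 in HxD and 3325 ± 325 in WT libraries (SD, n = 3 each), and there the genotypes overlapped. A peak was present in every KO library at 7 of the desert windows, in every HxD library at 6 and in every WT library at 33, and no desert window had one in every library of a mutant and none in WT. These counts by genotype were not taken over promoter windows elsewhere, so nothing is read from them. All 9 libraries had a peak at 2 of the 231 desert windows and at 1465 of the 11081 elsewhere.

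At the promoters whose sequences are shown above, the region at Gm46645, between Tle4, a corepressor, and Psat1, an enzyme of serine synthesis, covered 2132, 2220 and 1553 bp in KO, 1927, 1436 and 1660 bp in HxD and 1850, 2094 and 2799 bp in WT. Its values overlapped between genotypes (adjusted p = 0.586 for KO and 0.256 for HxD). That at Gm40175 covered 820, 1063 and 1390 bp in KO, 1975, 978 and 1853 bp in HxD and 866, 2293 and 1386 bp in WT, and also overlapped (adjusted p = 0.466 and 0.896). Gm46244, with 18 CG in its window, had none in the mutants and 631, 522 and 1415 bp in WT. Gm41243, with 1 CG, had none in the mutants and 1140, 677 and 827 bp in WT. At Gm30340 the mutants had none and the WT libraries 278, 409 and 529 bp. These 3 windows are all of the desert windows with a peak in every WT and no mutant library, and were chosen for it, so no test is given. How often promoter windows elsewhere show that pattern was not counted.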

How the data were processed

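Each of the 9 H3K4me3 libraries had 1 deposited peak list in the narrow peak format of MACS2, so peaks were called per sample. The submitters' processing notes name build mm10 and, without their roles, MACS2 2.1.0, deepTools 3.5.1, bedtools 2.27.1, Bowtie2 2.5.0, SAMtools 1.16.1 and Trim Galore. Not given in the sources used here are the step each did and the control used for peak calling. Each peak carries the authors' score, their linear fold enrichment (a ratio over background at the summit), and their −log10 p and −log10 q values. These are the authors' values. They served to rank peaks within a list, to filter peaks at the same cut-offs in every list, and to solve background and summit heights. The solved heights and backgrounds were compared between libraries. Per deposited list, the lowest −log10 q was 2.00 to 2.02. Without read counts, the measurements are the positions and lengths of called peaks and the background and summit heights solved from the fold and p columns (99.98% to 100% of peaks matched within 0.02). The precision therefore rests on 3 lists per genotype, and no counting interval was computed.

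Peaks overlapping by at least 1 bp were merged over all lists. Presence of a region in a library likewise needed 1 bp of overlap. Distances were taken to 20661 coding genes of the RefSeq table of GRCm38.p6, which is mm10 and carries no strand. No pair of lists shared more than 6 identical peaks. Library values were tested with exact permutations, two-sided, and the smallest possible p is 0.1 for 3 against 3 libraries, 0.0119 for 3 against 6 and 0.0036 for the F statistic over 1680 arrangements. Covered bp per region were fitted with limma 3.58.1 in R 4.3.3 on the 9 libraries (trended eBayes, p-values adjusted after Benjamini and Hochberg over all 78668 regions in at least 3 libraries, threshold 0.05). On data simulated for KO against WT over 78668 regions it recovered 0%, 18%, 42% and 50% of losses of 500, 1000, 1500 and 2000 bp, with 6 false calls. Losses were planted only in regions with a WT mean above 1500 bp, where desert regions had 691 bp covered per region in WT. Each library was drawn independently around the WT means, without a shift of whole libraries. The simulation therefore gives neither the recovery in desert regions nor the rate of false calls in these data. Other steps used Python 3.11.15, numpy 2.4.6, pandas 2.3.3, scipy 1.17.1 and matplotlib 3.10.9.

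Regions were named by rule: the 10 broadest in all 9 libraries, the 8 broadest in every WT and no library of a mutant, the 5 broadest in every library of a mutant and none of WT, up to 10 limma calls per direction (or the 3 smallest p), the 5 deserts with most regions and the 3 longest, and the 3 regions farthest from a coding gene. The text describes only some of these regions, chosen after their values were seen, and the others are not reported here. The members, lists and tests were chosen with earlier results of these data known. Alternatives were other peak thresholds, list lengths, merging and desert distances, replicates left out, a replicate block, no filter, centring and only the 2 groups compared.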

Additional observations from a re-analysis of the deposited data

How the results depend on the processing

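Against WT, the number, bp, share and both ratios of desert regions kept their direction for KO and for HxD in all settings run. Over the settings other than leaving out a library, the number was 0.232 to 0.451 times WT in KO and 0.148 to 0.534 times in HxD. Same-numbered libraries correlated at -0.196 to 0.0866 around their group means, and differently numbered ones at -0.0934 to 0.140. The same numbers thus did not show a closer likeness. Deviations from means of 3 libraries cannot settle whether the numbers pair the samples. With the replicate block, the 6 mutant libraries against WT gave an exact p = 0.25, the smallest that 3 pairs allow, for number (0.331 times WT), bp (0.257), share (-4.17 percentage points) and the log2 ratios to promoters (-1.55) and near intergenic regions (-0.93). Under the block limma called 1290 desert regions narrower and 1 broader in KO, and 818 narrower in HxD. Over all 78668 regions it called 5470 narrower and 128 broader in KO, and 3343 narrower in HxD.

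No direction held between KO and HxD. The ratio of KO over HxD was 0.975, 0.845, 0.876 and 0.793 for number, and 0.922, 0.825, 0.850 and 0.788 for bp, with stricter peaks (−log10 q of at least 5), lists of equal length, a fold of at least 6 and the common summit height. It was 0.998 for bp with deserts at 1 Mb. The share differed by 0.366 with presence at 50% of bp and by 0.0124 with deserts at 250 kb. The log2 ratio to promoters differed by -0.00127, -0.23, -0.23 and -0.39 and that to near intergenic regions by -0.10, -0.22, -0.20 and -0.30 under the same 4 settings, and the second by -0.041 at 1 Mb. Leaving out 1 library gave 0.979 to 1.40 for number, 0.828 to 1.24 for bp, -0.742 to 0.502 for share, -0.082 to 0.53 and -0.23 to 0.20 for the ratios.

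Regions common to WT and absent from KO numbered 422 with lists of equal length, 883 with a fold of at least 6, 2348 at 250 kb and 603 at 1 Mb, and 1674 to 2375 with 1 library left out. Those absent from HxD numbered 239, 698, 2068 and 510, and 1374 to 2091. Common to KO and absent from WT were 22 with equal lists, 7 at the common summit height, 11 at 250 kb, and 6 to 29 with 1 library left out. Common to HxD and absent from WT were 1 with stricter peaks, 23 with equal lists, 1 with a fold of at least 6, 1 with presence at 50%, 5 at 250 kb and 0 at 1 Mb, and 3 to 7 with 1 library left out. Between the mutants, KO alone had 10 with equal lists, 12, 9, 8, 41 and 10 with fold, summit height, presence at 50%, 250 kb and 1 Mb, and 29 to 137 with 1 library left out. HxD alone had 41 with equal lists, 15, 7, 50 and 8 with fold, presence at 50%, 250 kb and 1 Mb, and 35 to 223. Shares over all regions were not taken under these settings.

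Limma called 148 desert regions narrower in KO with lists of equal length, 732 with a fold of at least 6, 3204 at 250 kb, 809 at 1 Mb, 1115 with no filter, 175 centred and 511 with only the 2 groups, and 0 to 1872 with 1 library left out. For HxD these were 0, 529, 2519, 638, 787, 26 and 0, and 0 to 1597. Over all regions fitted the KO calls were 587 of 56929 with equal lists and 3378 of 59630 with the fold. They were 9395 of 78668 at both distances, 5785 of 179043 with no filter, 773 of 78668 centred and 2138 of 78668 with only the 2 groups. Those for HxD over all regions were 0, 2378, 7446, 4230, 127 and 0 in the same order. Broader in KO were 0 with equal lists, a fold of at least 6, no filter and only the 2 groups, 5 at the common summit height, 7 at 250 kb and 9 centred, and 0 to 3 with 1 library left out. Over all regions fitted the broader KO calls were 290 of 56929 with equal lists and 194 of 59630 with the fold. They were 250 of 179043 with no filter, 36 of 78668 with only the 2 groups and 394 of 66610 at the common summit height. At 250 kb they were 335 of 78668, centred 1050 of 78668, and 0 to 316 with 1 library left out. The F test of the near intergenic ratio gave 0.0179 to 0.0679 with 1 library left out. Of the named regions called against WT, the one at chr9:12609854 reversed for KO with lists of equal length (213 bp), and no other did in the settings that kept it. Some of these regions had no peak in any mutant library or in any WT library, so their direction could not reverse. The tally of directions and of calls is therefore partly fixed by the choice of regions. Many calls of named regions against WT were lost, however: 33 of 42 with lists of equal length, 37 of 57 with only the 2 groups, 20 of 49 with a fold of at least 6, 18 of 57 centred, and 3 to 31 with 1 library left out. Apart from fewer regions or samples in some settings, the cause was not tested. The 3 libraries per genotype and the lack of read counts limit all of this.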
